A study of Mus musculus with 4 samples.

Results

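Hippocampal nuclei from P301S/EKO mice, which carry the P301S tau allele and lack Apoe, were set beside nuclei from WT mice, cell class by cell class. A barcode was a member if it held 200 or more genes and no more than 5% of its UMIs (unique molecular identifiers, counted transcripts) were mitochondrial: 5576 in P301S/EKO and 5505 in WT, 11081 of 19475 in the series. Each of these libraries held nuclei from 7 pooled hippocampi of mice aged 9 months, strain B6, and was prepared with droplet 3′ chemistry. Companion libraries of the same age and strain were EKO (7 pooled hippocampi) and P301S (8 pooled hippocampi). The labels give the genotypes by these names and do not give the sexes, the promoter that drives the tau allele or the cells that express it. Each genotype is 1 pooled library without a replicate, so no test between genotypes was possible. Intervals given below are 95% intervals for counting error, and they hold nothing of the spread between animals or preparations.

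Tau is a microtubule-binding protein of neurons, and the P301S change, found in familial frontotemporal dementia, makes it prone to aggregate. Apolipoprotein E carries cholesterol and other lipids between brain cells and is made mainly by astrocytes, and by microglia when they are activated. In tauopathy models, microglia and astrocytes take up inflammatory states in which lysosomal, complement, antigen presentation and interferon-induced genes are raised. The design pairs the tau allele with and without Apoe, and the comparison here asks which parts of the response to the tau allele stand above WT in mice without Apoe, and which lie at the WT level.

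Levels are in CPM, a gene's UMIs scaled to a class total of 1000000, and 4 values in a row stand for WT, EKO, P301S and P301S/EKO in that order. The levels of Apoe matched the genotype names. Apoe (chr7:19696109-19699188, minus strand, GRCm38.p6) was at 1932, 16.4, 6402 and 19.6 CPM over all nuclei, which was 98.4-fold lower in P301S/EKO than in WT (84.8 to 115). Prnp, the prion protein gene, was at 375, 440, 618 and 738 CPM, 1.97-fold higher in P301S/EKO than in WT (1.90 to 2.05) and called higher in 11 of 11 classes on the CPM scale. After the identity scaling described below, Prnp was close to WT in microglia-like nuclei (log2 0.33). It was then unresolved in the astrocyte, oligodendrocyte, precursor and endothelial classes (log2 0.18 to 0.43). Mapt, the mouse tau gene, was at 161, 157, 254 and 206 CPM in the same order, 1.28-fold higher in P301S/EKO than in WT (1.20 to 1.37). The counts were made against the mouse genome, and how far reads from the tau allele enter the Mapt count is not known. Both libraries with the P301S allele had the higher Mapt and Prnp values.

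The pools differed in ways other than the alleles. Y-linked Eif2s3y was at 553, 295, 513 and 265 CPM, 2.09-fold lower in P301S/EKO than in WT, and Uty, Kdm5d and Ddx3y were lower too. The X-inactivation transcript Xist was at 6.42 and 8.12 CPM in WT and P301S/EKO. After removal of likely doublets, 5234 WT nuclei and 5274 P301S/EKO nuclei were compared. Kept barcodes had a median of 1941 UMIs in WT and 1446.5 in P301S/EKO, and 10.4% and 17.6% of barcodes were dropped for mitochondrial UMIs. WT and P301S/EKO had 41 cell barcodes in common, 0.745% of the smaller library.

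Classes were clusters named from marker genes, called "-like" for that reason, and 11 of them had at least 50 nuclei in both libraries. The share of microglia-like nuclei was 4.15% (3.62 to 4.72), 2.71%, 11.26% and 6.45% (5.80 to 7.14) in the order WT, EKO, P301S, P301S/EKO. The P301S/EKO share thus lay 1.55-fold above WT (1.31 to 1.85) and below the P301S share. With nuclei rich in neuronal RNA left out, that ratio was 3.48 (2.47 to 4.99). Astrocyte-like nuclei held 5.39% of WT and 3.81% of P301S/EKO nuclei, 1.41-fold lower (1.18 to 1.70). Endothelial cell-like nuclei held 3.06% and 1.86%, 1.65-fold lower (1.27 to 2.14). Dentate granule neuron-like nuclei held 12.46% of WT, 25.87% of EKO, 5.52% of P301S and 18.73% of P301S/EKO nuclei. The P301S/EKO share of these granule neurons was 1.504-fold the WT share (1.36 to 1.66), while the P301S share was the lowest of the 4. CA1 neuron-like nuclei held 15.71%, 11.73%, 8.81% and 11.74% in the same order. Shares of CA2 or CA3, inhibitory and subicular or cortical excitatory neurons differed between P301S/EKO and WT by ratios of 0.907, 1.07 and 0.992, with intervals that take in 1. Oligodendrocyte precursor-like nuclei held 1.32% of WT and 2.07% of P301S/EKO nuclei, but the ratio of 1.57 turned to 0.875 when nuclei under 500 genes were left out and rose to 2.65 when nuclei rich in neuronal RNA were. Shares depend on how nuclei of each type survived isolation in a pool, and fewer nuclei of a type cannot be told apart from more of the others.

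**Figure D1:**
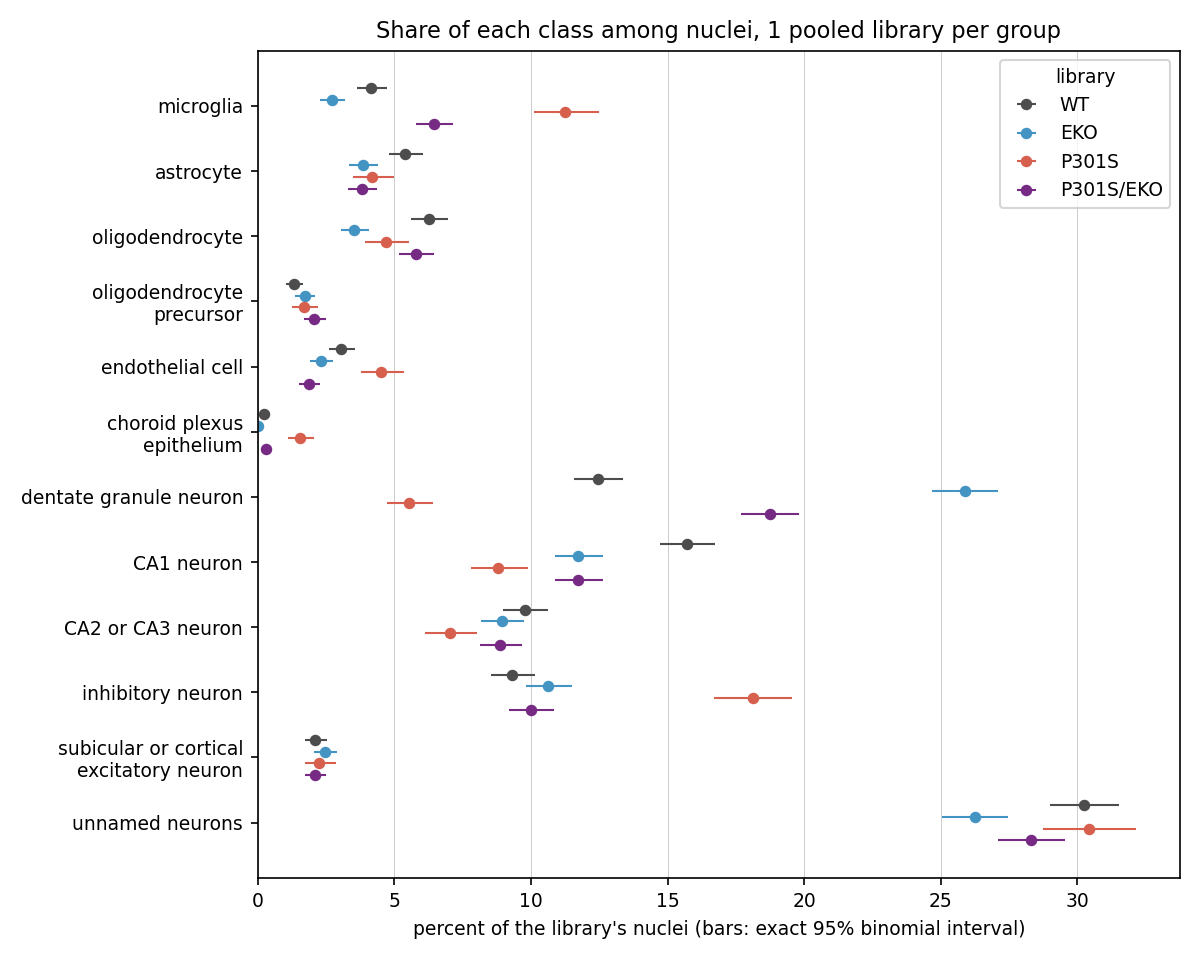
Share of each class among a library's nuclei (percent, horizontal axis) in the 4 libraries, with exact 95% binomial intervals. Microglia-like nuclei in P301S/EKO (6.45%) lie between WT (4.15%) and P301S (11.26%), and dentate granule neuron-like nuclei range from 5.52% in P301S to 25.87% in EKO.

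Genes were compared on CPM of the UMIs summed over a class. A gene was called higher or lower when P301S/EKO and WT differed by at least 1.5-fold with a counting interval that left out 1, and close when the whole interval lay within 1.5-fold. Any other gene was unresolved. RNA of neurons was present in all glial classes and took a larger part of the WT nuclei. Transcripts of a list of neuronal genes made up a median of 3.85% of UMIs per microglia-like nucleus in WT and 2.68% in P301S/EKO. The summed level of the 14 microglial markers was 3944, 8374, 6949 and 9132 CPM, with none of the 14 at 0. Summed markers of astrocytes, oligodendrocytes and precursors were also 1.69, 1.59 and 1.77 times as high in P301S/EKO as in WT in their own classes, against 1.05 for endothelial markers. Glial values are therefore given both on the CPM scale and after scaling each class so that the median of its own identity genes is equal in both libraries, an alternative added after the data were seen. The glial classes were also recomputed with nuclei rich in neuronal RNA (mixed nuclei) left out and with neuronal RNA subtracted, and values from these settings stand beside some of the results.

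Interferon-induced and antigen presentation genes were among those that stood highest above WT, and the promoters of some of them are shown first. Interferons act through factors that bind an element with repeated GAAA runs (the interferon-stimulated response element). The letters GAAA, any 2 bases and GAAA again, searched on both strands in the 250 bases before each gene start, occurred in 978 of 32851 mouse promoters (2.98%). They occurred in 16 of the 26 interferon response genes with a promoter in the RefSeq table (61.5%) and in 3 of 13 genes of the major histocompatibility complex (MHC) class I and peptide loading list (23.1%). A list gene counted if any of its promoters had a match, while the background counts each promoter, so the shares are on unlike units. The promoters shown were picked by gene, and each holds a match. A match describes letters and is not evidence of binding. The stretches run from 160 to 51 bases before the start (RefSeq, GRCm38.p6, 5′ to 3′ on the gene's strand, matches in capitals, where overlapping matches run together).
B2m, chr2:122147527-122147636, plus strand: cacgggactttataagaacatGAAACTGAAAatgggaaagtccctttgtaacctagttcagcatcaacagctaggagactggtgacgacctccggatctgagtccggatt
H2-T23, chr17:36032752-36032861, minus strand: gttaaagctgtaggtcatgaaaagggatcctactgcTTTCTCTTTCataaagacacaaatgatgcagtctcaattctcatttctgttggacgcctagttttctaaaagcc
Isg15, chr4:156200869-156200978, minus strand: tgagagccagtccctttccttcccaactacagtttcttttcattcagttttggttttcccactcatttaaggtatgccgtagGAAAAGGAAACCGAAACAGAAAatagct
Bst2, chr8:71537523-71537632, minus strand: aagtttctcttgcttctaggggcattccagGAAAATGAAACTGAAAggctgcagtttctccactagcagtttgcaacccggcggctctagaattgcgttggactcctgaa
Ifit1, chr19:34640729-34640838, plus strand: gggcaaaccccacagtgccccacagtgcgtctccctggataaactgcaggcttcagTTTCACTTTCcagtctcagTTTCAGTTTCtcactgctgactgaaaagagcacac
Ifit3, chr19:34583369-34583478, plus strand: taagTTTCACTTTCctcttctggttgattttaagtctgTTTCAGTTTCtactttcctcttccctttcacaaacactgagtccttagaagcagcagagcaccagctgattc

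In microglia-like nuclei (340 in P301S/EKO, 217 in WT), the class I antigen presentation genes stood well above WT. H2-D1, a class I heavy chain (chr17:35262730-35267499, plus strand), was at 106, 215, 844 and 827 CPM. That was 7.79-fold above WT in P301S/EKO (6.35 to 9.64), and the P301S/EKO and P301S levels were side by side. H2-K1 followed the same order with 39.0, 77.9, 308 and 250 CPM. B2m, the shared light chain with the promoter shown above, was at 65.3, 131, 322 and 365 CPM, 5.60-fold above WT. Of the 10 class I and peptide loading genes with at least 20 UMIs, of 15 in the list, 9 were called higher and none lower, where 5.2% of all 9228 genes at that minimum were called higher and 4.63% lower. Their median log2 ratio was 1.94, beside -0.03 over all those genes, and after identity scaling it was 1.37 with 6 of 10 called higher. With each nucleus thinned to 1000 UMIs, 47.3% of P301S/EKO and 12.5% of WT microglia-like nuclei had an H2-D1 UMI. Dentate granule neurons, which should hold little of it, gave 8.7% and 3.9%, at unthinned median depths of 1115 and 1418.5 UMIs. Unthinned values were 72.4% and 35.5% in microglia, at median depths of 1803 and 3966 UMIs, and thinning left out 63 and 1 nuclei.

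The immune checkpoint gene Lag3 had the largest ratio among genes with at least 50 UMIs whose interval lay wholly above 1.5-fold. It was at 33.1, 193, 205 and 350 CPM, 10.6-fold above WT (7.39 to 15.6). Lag3 was thus raised in the EKO library without the tau allele as well, and highest in P301S/EKO. Lgals3bp, a secreted glycoprotein induced by interferon, was at 10.7, 18.7, 115 and 113 CPM, 10.5-fold above WT (5.62 to 21.9), and stood out in both libraries with the P301S allele.

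Interferon-induced genes of microglia were lower in both libraries without the tau allele for the 3 genes given here. Oasl2, an antiviral oligoadenylate synthetase-like gene, had no UMI in WT or EKO and was at 39.5 CPM in P301S and 29.2 in P301S/EKO, at least 9.99-fold above WT against a floor of 3 counts. Ifi204, a nucleic acid sensor, was at 1.95, 0, 48.1 and 30.5 CPM. Bst2 (tetherin), whose promoter is shown above, was at 5.84, 18.7, 32.3 and 36.8 CPM. Of 9 measured genes of the 32 in the list, 7 were higher and none lower, with a median log2 ratio of 2.23, or 1.69 with 6 higher and 1 lower after identity scaling. With neuronal RNA subtracted, 5 of 6 measured were higher, and 2 of the 6 had at least 10 UMIs in WT. Nuclei with at least 3 UMIs of the list made up 9.68% of WT (6.09 to 14.4), 2.13% of EKO, 36.6% of P301S and 14.4% of P301S/EKO microglia (10.9 to 18.6). Those shares were not thinned, and WT nuclei were the deeper ones.

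Cd74 and H2-Ab1 of MHC class II and several genes of the disease-associated microglial state lay between WT and P301S. Of 4 measured class II genes of the 7 in the list, 3 were higher than WT and none lower, at a median of 1.19, or 0.63 with 1 higher after identity scaling. Cd74, the class II invariant chain, was at 17.5, 21.8, 439 and 97.7 CPM. Its P301S/EKO level was 5.57-fold above WT (3.30 to 9.90) and far below P301S. H2-Ab1, a class II chain, was at 11.7, 3.11, 122 and 31.7 CPM. It was called higher in P301S/EKO than in WT, but its interval took in 1 after identity scaling. H2-DMa, which helps load peptide onto class II, did not lie between them, with 32.1, 40.5, 36.6 and 63.4 CPM, 1.97-fold above WT (1.25 to 3.16) and above P301S. Spp1 (osteopontin) was at 4.87, 9.34, 328 and 49.5 CPM, 10.2-fold above WT (4.00 to 33.0). Lysozyme gene Lyz2 was at 26.3, 52.9, 325 and 136 CPM, 5.16-fold above WT (3.36 to 8.19). Cd9, a tetraspanin, did not follow that order, with 206, 392, 465 and 646 CPM. Trem2, the lipid-sensing receptor needed for this state, was at 168, 361, 400 and 438 CPM. On the CPM scale it was thus near one level in the 3 libraries other than WT. Summed microglial markers were also higher in those 3 libraries, at 3944, 8374, 6949 and 9132 CPM in the same order. The part of neuronal RNA in the Trem2 values was not tested. Fth1, a ferritin chain, was close to WT in P301S/EKO (1.33-fold, 1.21 to 1.46). Of 17 measured genes of the 28 in the disease-associated list, 12 were higher and 1 lower in P301S/EKO than in WT, at a median of 1.31, or 0.73 with 10 higher and 1 lower after identity scaling. The 1 gene called lower in that list, looked up after the count was seen, was Hif1a, a hypoxia-response factor.

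Complement and lysosomal genes were higher than WT in P301S/EKO, and fewer of them were higher in EKO. C4b, a classical pathway component (chr17:34728380-34743882, minus strand), was at 24.3, 43.6, 490 and 160 CPM, 6.57-fold above WT (4.25 to 10.5). C1qa, a chain of the pathway's first component, was at 712, 1442, 2050 and 1915 CPM. Microglia-like nuclei also held oligodendrocyte markers, summed at 3947, 5758, 4840 and 5589 CPM, with none of the 10 at 0. The part of oligodendrocyte RNA in C4b and in the other values of this class was not tested. All 8 measured complement genes were higher than WT, at a median of 1.41, or 0.82 with 5 higher after identity scaling. In EKO over the same WT library 4 of the 8 were higher at a median of 1.05, and none with neuronal RNA subtracted (median 0.18), where 5 were in P301S/EKO. Cathepsin S (Ctss) was at 328, 900, 872 and 1245 CPM, and cathepsin D (Ctsd) at 703, 1295, 2774 and 2006 CPM. Of 30 measured lysosomal genes 22 were higher and none lower, at a median of 0.87, but identity scaling left 9 higher at a median of 0.29. In EKO over WT 17 of the 30 were higher at a median of 0.64. With neuronal RNA subtracted, 14 of 29 were higher in P301S/EKO and 1 in EKO.

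Genes of resting microglia were higher than WT on the CPM scale, with exceptions. Of 21 measured homeostatic genes 9 were higher, 1 lower and 3 close, at a median log2 ratio of 0.58, and in EKO over WT 13 were higher at a median of 0.92. The list sets the identity scaling of the class, so that scaling brings its median to 0 by construction. With neuronal RNA subtracted the median was 0.085, with 1 gene higher and 3 lower. P2ry6, a nucleotide receptor that triggers phagocytosis, was at 40.9, 81.0, 120 and 92.6 CPM, 2.26-fold above WT (1.53 to 3.39). Fcrls, an Fc receptor-like gene of microglia, was at 122, 296, 180 and 269 CPM, 2.21-fold above WT (1.76 to 2.78), and was unresolved after identity scaling. P2ry12, the nucleotide receptor of surveying microglia, was at 119, 230, 42.4 and 126 CPM. On the CPM scale the P301S/EKO value was close to WT (1.06-fold, 0.803 to 1.39), where P301S was the lowest of the 4. P2ry12 was unresolved after identity scaling (log2 -0.50), with neuronal RNA subtracted (log2 -0.51) and with mixed nuclei left out (log2 -0.04). The fructose transporter gene Slc2a5 was at 81.8, 121, 19.4 and 34.3 CPM, 2.39-fold below WT in P301S/EKO (1.53 to 3.83). The transcription factor genes Maf and Mef2c were close to WT on the CPM scale, and Mef2c was lower after identity scaling (log2 -0.81). Cholesterol synthesis genes had a median of -0.08 in P301S/EKO and -0.51 in P301S over WT. Identity scaling moved the P301S/EKO median to -0.66 with 8 of 17 called lower.

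The EKO library gives a second baseline, since it lacks Apoe and shares neither library with the comparison of P301S with WT. Its microglial marker level (8374 CPM) and depth (median 1871 UMIs) were nearer to P301S/EKO (9132 CPM, 1803 UMIs) than those of WT. Against EKO, the median log2 ratio in P301S/EKO was 1.49 for class I genes, 1.06 for interferon genes, 0.59 for disease-associated genes, 0.34 for complement and 0.17 for lysosomal genes. In P301S over WT the same medians were 1.93, 2.39, 1.38, 1.10 and 0.85. After identity scaling the medians were 1.81, 1.38, 0.92, 0.67 and 0.49 over EKO and 1.83, 2.30, 1.29, 1.00 and 0.75 in P301S over WT, so that class I genes came to nearly one value in both pairs. The difference between the pairs could not be tested with 1 library each.

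**Figure D2:**
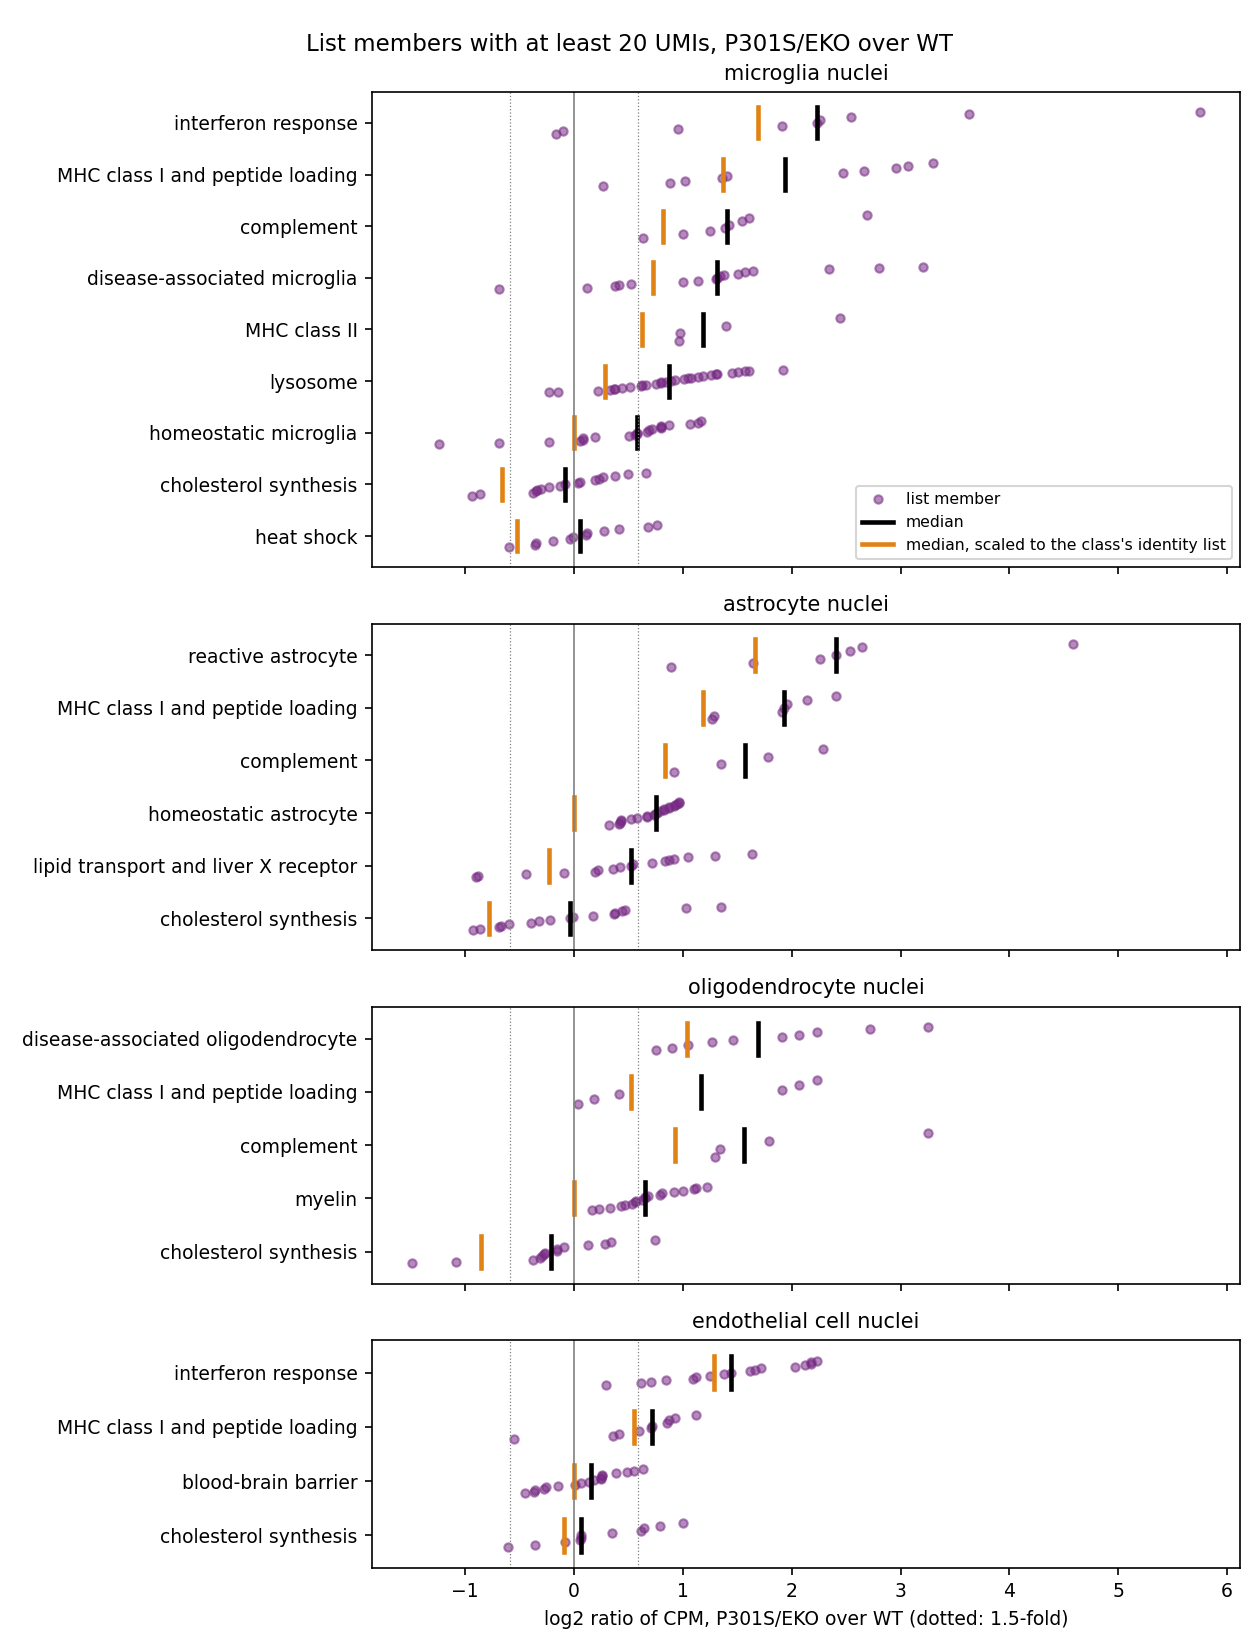
Log2 ratio of CPM of P301S/EKO over WT (horizontal axis) for each list member with at least 20 UMIs, in 4 classes; black bars are list medians and orange bars the medians after scaling to the class's identity list. Interferon (2.23) and class I genes (1.94) of microglia and reactive genes of astrocytes (2.41) lie to the right, and blood-brain barrier genes of endothelial cells (0.16) near 0. The UMI minimum is summed over both libraries, so a gene near 0 in WT can enter through P301S/EKO alone.

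Astrocyte-like nuclei (201 in P301S/EKO, 282 in WT) had raised reactive genes in P301S/EKO. Gfap, the intermediate filament raised in reactive astrocytes, was at 511, 925, 3928 and 2455 CPM. The P301S/EKO level was 4.80-fold above WT (4.15 to 5.57). Vim, another intermediate filament, was at 73.9, 148, 779 and 399 CPM, 5.40-fold above WT (3.67 to 8.08). Serpina3n, a secreted protease inhibitor, was at 3.89, 4.62, 211 and 123 CPM, a ratio of 31.7 that rests on 2 UMIs in WT (8.05 to 274). For these 3 genes the order was WT, EKO, P301S/EKO, P301S. S100a6, a calcium-binding protein, was at 35.0, 46.2, 238 and 226 CPM, and so was as high in P301S/EKO as in P301S. All 7 measured genes of the 27 in the reactive list were higher, where 9.68% of all genes at that minimum were (7.33% lower). Their median was 2.41, beside 0.02 over all genes, and 1.67 with 5 of 7 higher after identity scaling. With mixed nuclei left out, 6 of 7 measured were higher, and 4 of the 7 had at least 10 UMIs in WT.

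Immune genes of astrocytes were raised beside the filament genes. Ifitm3, an interferon-induced membrane protein, was at 35.0, 32.4, 342 and 280 CPM, 7.99-fold above WT (4.70 to 14.3). B2m was at 70.0, 87.9, 476 and 312 CPM, and H2-T23, a class I chain with its promoter shown above, at 17.5, 9.25, 49.9 and 98.7 CPM. All 7 measured class I genes were higher than in WT, at a median of 1.93, or 1.18 with 5 higher after identity scaling. Against EKO the median was 1.80, and in P301S over WT it was 1.67. C4b was at 163, 342, 1029 and 802 CPM, 4.91-fold above WT (3.78 to 6.42). The C1q genes called higher in astrocytes are made by microglia, and the summed microglial markers in astrocyte-like nuclei were 307, 259, 883 and 571 CPM, with 3 of 14 markers at 0 in EKO and 1 in P301S/EKO. Their part in the C1q values was not tested.

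Lipid genes of astrocytes fell into separate groups. Abca1, the exporter that loads lipid onto apolipoprotein E, was at 46.7, 69.4, 288 and 148 CPM, 3.17-fold above WT (1.84 to 5.56). Clusterin (Clu), the other main apolipoprotein of astrocytes, was at 4641, 7510, 10068 and 11426 CPM, 2.46-fold above WT (2.33 to 2.60), and was unresolved after identity scaling. Cholesterol synthesis differed from P301S: the median of 17 measured genes was -0.04 over WT in P301S/EKO and -1.28 in P301S. Squalene epoxidase (Sqle) was at 173, 259, 42.2 and 107 CPM, 1.62-fold below WT in P301S/EKO (1.04 to 2.61) and lowest in P301S. Idi1, an isomerase of the same pathway, was at 33.1, 102, 26.9 and 86.3 CPM and higher in both libraries without Apoe. On the CPM scale 1 of the 17 was higher and 2 lower, and identity scaling gave a median of -0.78 with 7 lower. With mixed nuclei left out, the P301S/EKO median was -0.12 over WT and -0.52 over EKO. Whether cholesterol synthesis genes of astrocytes lie at the WT level thus depends on the scale.

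Slc1a2, the main glutamate transporter, was 1.93-fold higher than WT in CPM (2961, 4389, 6397 and 5719). After identity scaling Slc1a2, Aldoc and Mlc1 were close to WT, as their list of homeostatic astrocyte genes sets that scale. Gene Cntnap5a, of the neurexin family, was at 187, 111, 42.2 and 16.4 CPM, 11.3-fold below WT (4.29 to 42.5). Neuronal transcripts were lower in astrocyte-like nuclei in general, with 9 of 12 called lower.

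Oligodendrocyte-like nuclei (305 in P301S/EKO, 328 in WT) showed raised disease-associated genes, and their myelin genes were higher to an extent that varied with the scale. C4b was at 28.0, 55.7, 603 and 273 CPM, 9.75-fold above WT (6.31 to 15.6) and lower than in P301S. Klk6, a myelin-associated serine protease, was at 10.1, 32.7, 41.9 and 70.3 CPM, 6.98-fold above WT (3.27 to 16.6) and highest in P301S/EKO. H2-D1 was at 60.5, 36.0, 203 and 230 CPM, 3.81-fold above WT (2.72 to 5.38). Summed microglial markers in oligodendrocyte-like nuclei were at 182, 213, 606 and 379 CPM, with 2 of 14 at 0 in EKO. Their part in the class I values was not tested. Of 10 measured genes of the disease-associated list 9 were higher, where 3.2% of all genes were (4.0% lower), at a median of 1.69, or 1.04 with 7 higher after identity scaling. Mbp, myelin basic protein, was at 947, 1244, 1700 and 2035 CPM, 2.15-fold above WT. Of 19 measured myelin genes 10 were higher and none lower on the CPM scale, at a median of 0.65. With mixed nuclei left out 9 of 17 were higher at a median of 0.67, and with neuronal RNA subtracted 4 of 19 at a median of 0.36. None was higher after identity scaling, which this list sets to a median near 0 by construction. Apolipoprotein D (Apod) was at 504, 616, 1167 and 912 CPM, 1.81-fold above WT and close to it after identity scaling. The sterol genes Sc5d and Ebp were 2.89-fold and 2.16-fold lower than WT.

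Precursors (109 nuclei in P301S/EKO, 69 in WT) had a small base of 632 genes with 50 UMIs. Gpr17, a receptor that marks precursors about to differentiate, was at 100, 324, 285 and 330 CPM, 3.30-fold above WT (1.80 to 6.38), and so was raised in each library other than WT. H2-D1 was at 86.8, 202, 376 and 338 CPM, 3.89-fold above WT (2.06 to 7.86). Summed microglial markers in precursors were at 227, 223, 661 and 390 CPM, with 3, 4, 1 and 3 of 14 at 0. Their part in the H2-D1 values was not tested. Of 12 measured precursor genes 6 were higher on the CPM scale, where 5.42% of all genes were (4.84% lower), and 1 after identity scaling.

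**Figure D3:**
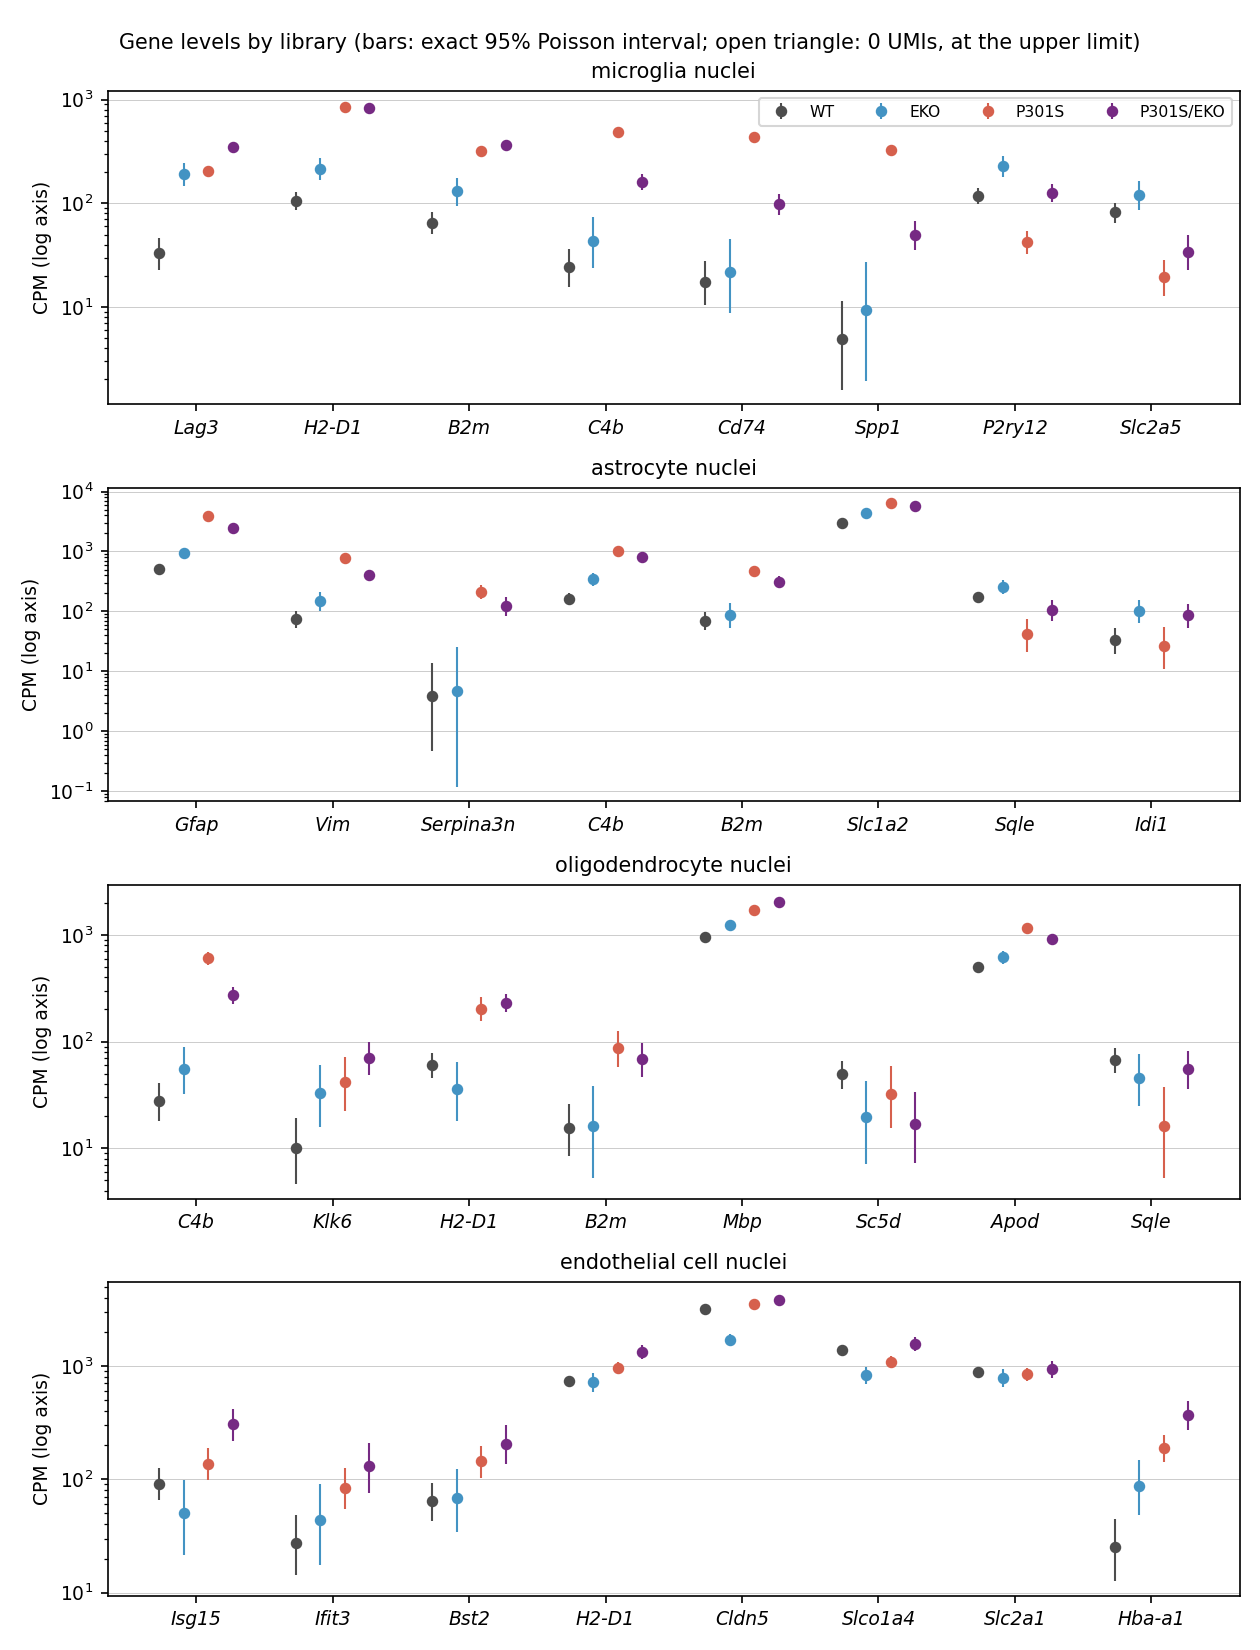
Level of 8 genes in each of 4 classes by library (CPM, log axis), with exact 95% Poisson intervals. Microglial H2-D1 is level in P301S (844 CPM) and P301S/EKO (827 CPM), while Cd74 falls from 439 to 97.7 CPM between them, and P2ry12 is at 126 CPM in P301S/EKO and 119 CPM in WT on this scale, unresolved after identity scaling.

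Endothelial cell-like nuclei (98 in P301S/EKO, 160 in WT) had raised interferon genes, while none of their barrier genes was called higher or lower in the main clustering. The cluster also held markers of fibroblasts, mural cells and microglia. Summed mural markers were at 3816 CPM in WT and 5201 in P301S/EKO. Summed fibroblast markers were at 629, 1528, 1419 and 1354 CPM, with 1 of 8 at 0 in WT, and summed microglial markers at 348, 701, 894 and 658 CPM, with 1 of 14 at 0 in EKO and 2 in P301S/EKO. Their part in the interferon values was not tested. Ifit1, an interferon-induced RNA-binding protein with its promoter shown above, was at 45.8, 31.3, 113 and 222 CPM, 4.85-fold above WT (2.65 to 9.04). Isg15, a ubiquitin-like modifier, was at 91.5, 50.1, 137 and 306 CPM, 3.34-fold above WT (2.10 to 5.32). Ifit3 was at 27.5, 43.8, 84.5 and 130 CPM, and the guanylate-binding protein gene Gbp7 at 32.0, 62.6, 49.3 and 145 CPM. For these 4 genes P301S/EKO was the highest of the libraries, above P301S. Of 17 measured interferon genes 11 were higher and none lower, where 4.11% of all genes were (3.15% lower), at a median of 1.45, or 1.29 with 10 higher after identity scaling. The median was 0.60 in P301S over WT and 1.497 in P301S/EKO over EKO. Summed endothelial markers were at 10998.9, 5992.3, 9756.4 and 11564.5 CPM by library, and so were lowest in EKO. With mixed nuclei left out, 11 of 18 barrier genes were lower in EKO than in WT (median -0.86). The part of this lower endothelial content in the median over EKO was not tested. Nuclei with at least 3 UMIs of the list held 28.8% (21.9 to 36.4), 13.3%, 45.0% and 44.9% (34.8 to 55.3) by library, before any thinning for depth. Tight junction gene Cldn5 was close to WT (1.19-fold, 1.07 to 1.32), as were the transporter genes Slco1a4, Slc2a1 and Slco1c1. Finer clustering (resolution 2) gave an endothelial cluster of 116 WT and 50 P301S/EKO nuclei and a separate fibroblast cluster of 45 and 49. Log2 ratios in that endothelial cluster were 0.598 for Cldn5, 0.487 for Slco1a4, 0.442 for Slc2a1 and 0.421 for Slco1c1. The part of the class mixture in the barrier values was not tested. Of 18 barrier genes none was higher or lower and 5 were close in the main clustering, at a median of 0.16. Haemoglobin Hba-a1, a red cell transcript, was at 25.2, 87.7, 190 and 367 CPM in this class, 14.6-fold above WT.

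Neurons differed little from WT in the lists of their own work. Of 23 measured synaptic genes, 17 were close in CA1 neuron-like nuclei and 16 in dentate granule neuron-like nuclei, and none was higher or lower in either class. Of all genes with 20 UMIs, 3.31% were higher and 3.39% lower in CA1, 2.94% and 3.56% in dentate granule, 2.78% and 3.9% in CA2 or CA3, 3.71% and 2.87% in inhibitory, and 3.85% and 1.7% in subicular or cortical excitatory neurons. Synaptic medians lay between -0.08 and 0.06 in the 6 neuronal classes. Among CA1 nuclei, Grin2a, a glutamate receptor subunit, was close to WT (1.01-fold lower, 0.951 to 1.06) and Syt1, a vesicle calcium sensor, was also close (1.03-fold lower, 0.962 to 1.11). Exceptions were Gria2 in inhibitory neurons, at 3240, 2292, 2544 and 2125 CPM (1.52-fold lower, 1.44 to 1.62), and Gabrb2, a GABA receptor subunit, in CA2 or CA3 neurons (3.50-fold lower, 1.60 to 8.74). In those nuclei Stx1a, a vesicle fusion protein, was 1.70-fold higher, Homer1 was 1.58-fold higher in neurons of unnamed clusters, and Syn2 was 1.86-fold higher in subicular or cortical excitatory neurons. Nuclear genes of oxidative phosphorylation had medians of 0.01 to 0.13 over WT in the neuronal classes.

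Cholesterol synthesis genes of neurons had medians near 0 over WT in P301S/EKO and below 0 in P301S, with most single genes unresolved in P301S/EKO. Medians over WT were 0.04 in CA1, 0.02 in dentate granule, 0.09 in CA2 or CA3 and 0.08 in inhibitory neurons in P301S/EKO. In P301S over the same WT library they were -0.31, -0.43, -0.42 and -0.68. EKO over WT gave 0.29, 0.37, 0.15 and 0.15, and P301S/EKO over EKO gave -0.16, -0.24, -0.15 and -0.15. Subicular or cortical excitatory neurons had medians over WT of 0.17 in P301S/EKO, 0.51 in EKO and -1.34 in P301S. Neurons of unnamed clusters had -0.05, 0.21 and -0.49 in that order. In the neurons of unnamed clusters, Msmo1, a sterol oxidase, was at 115, 161, 68.9 and 115 CPM. Squalene epoxidase followed with 75.4, 92.7, 40.8 and 73.2 CPM there. For both genes P301S was the lowest library and P301S/EKO was close to WT, with intervals of 0.853 to 1.17 for Msmo1 and 0.844 to 1.26 for Sqle.

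**Figure D4:**
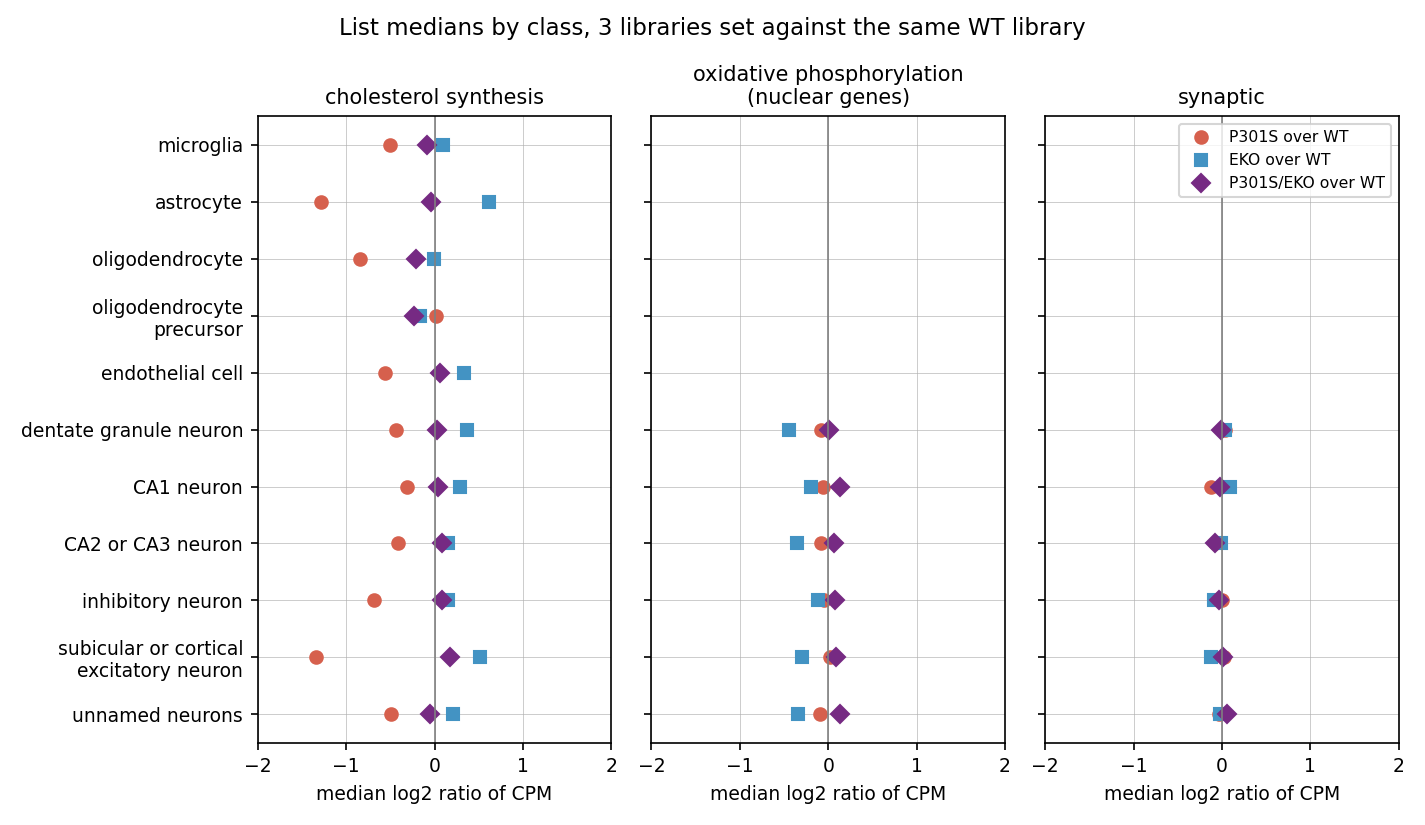
Median log2 ratio over the WT library (horizontal axis) of cholesterol synthesis, oxidative phosphorylation and synaptic genes in each class where the list was compared, for P301S, EKO and P301S/EKO, which share that WT library. Cholesterol medians of neurons lie left of 0 in P301S (-0.31 in CA1, -0.68 in inhibitory neurons) and near 0 in P301S/EKO (0.04 and 0.08).

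Some interferon genes were higher than WT in neurons too, at low levels. Of 5 measured genes of the list 2 were higher in CA1 (median 0.15), 2 in dentate granule (median 0.30) and 3 in CA2 or CA3 neurons (median 0.66), and of 4 measured in inhibitory neurons 2 were higher (median 0.55). None was lower in those classes and the other members were unresolved. Ifit1 was at 0.971, 0, 37.3 and 26.8 CPM in dentate granule neurons, where WT had 1 UMI (ratio 27.6, lower bound 4.60). In CA2 or CA3 neurons it was at 0, 0.737, 27.7 and 16.4 CPM, at least 9.16-fold above WT. Bst2 in CA1 neurons was at 2.15, 1.75, 25.6 and 24.5 CPM, 11.4-fold above WT (4.00 to 44.6). Nuclei of CA2 or CA3 neurons with at least 3 UMIs of the list made up 0.781% (0.213 to 1.99), 2.37%, 8.46% and 5.98% (4.01 to 8.53) by library. In neurons of unnamed clusters, 8 of 10 measured interferon genes were higher, where 3.51% of all genes were (3.14% lower), at a median of 2.07. Of those 10, only 4 had at least 10 UMIs in WT. For Ifit1 and Bst2 as given here, both libraries with the tau allele held the high values. Summed microglial markers in dentate granule neurons were also higher in both, at 120, 149, 555 and 370 CPM. The part of RNA from other cells in the neuronal interferon values was not tested, and Gfap, C1q and Ctss, which other cells make, were higher in neurons as well.

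Most genes of the stress lists were not called in neurons, and a few stood above WT. In the unnamed neuronal clusters, which hold 28.3% of P301S/EKO nuclei, 2 of 12 measured heat shock genes were higher (median 0.33), as were 4 of 16 immediate early genes (median 0.27), with none lower. Of 18 genes of the integrated stress and unfolded protein response, 1 was higher and 1 lower there (median 0.13). In CA1 neurons 3 of 12 heat shock genes (Hspa1a, Hsph1 and Cryab) were higher, at a median of 0.41, and so were Ddit3 and Xbp1 among 16 stress response genes. In dentate granule neurons Cryab and Dnajb5 of 11 heat shock genes and Phgdh of 15 stress response genes were higher. Summed oligodendrocyte markers were at 876 CPM in WT and 1364 in P301S/EKO dentate granule neurons, and at 634 and 956 in CA1. The part of oligodendrocyte RNA in the Cryab values was not tested. In the unnamed clusters Atf3, a stress-induced transcription factor, had no UMI in WT or EKO and was at 1.53 CPM in P301S and 9.15 in P301S/EKO, at least 9.59-fold above WT. Hspa1a, the inducible heat shock protein, was at 9.55, 15.4, 8.16 and 44.1 CPM, 4.62-fold above WT (3.06 to 7.18). Ecel1, a neuronal endopeptidase induced by injury, was at 2.86, 8.94, 31.1 and 25.4 CPM, 8.86-fold above WT (4.38 to 20.3), and stood out in both libraries with the tau allele. The unnamed class pools clusters whose shares shifted between WT and P301S/EKO. Cluster 4 went from 10.8% to 6.92% of nuclei and cluster 1 from 8.10% to 9.42%. At resolution 2, Ecel1 was among the top 10 genes of an unnamed cluster with 222 WT and 351 P301S/EKO nuclei. The part of such shifts in the ratios of the unnamed class was not tested. The immediate early genes Fos, Fosb, Jun and Egr1 were 1.77-fold to 3.60-fold higher than WT, while Arc and Junb were close. The unnamed class holds cluster 6, with Fos, Egr4, Hspa1a, Junb and Arc among its top 10 genes. This cluster had 21 WT and 25 P301S/EKO nuclei. Its part in the ratios of immediate early genes and Hspa1a was not tested. The endoplasmic reticulum chaperones Hspa5 and Calr were close to WT (1.05-fold higher and 1.08-fold lower). In inhibitory neurons Slc7a3, a cationic amino acid transporter, was at 8.58, 46.3, 21.0 and 50.4 CPM, 5.87-fold above WT (2.82 to 13.7), and was raised in both libraries without Apoe.

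Over all nuclei, 63.5% of 12754 genes were close to WT, 364 were higher (2.85%) and 527 lower (4.13%). Genes with 50 UMIs were higher and lower at 5.61% and 5.67% of 5684 in microglia-like, 14.0% and 11.9% of 2440 in astrocyte-like and 3.71% and 5.23% of 4228 in oligodendrocyte-like nuclei. In precursors the shares were 9.02% and 7.12% of 632 genes, and in endothelial cell-like nuclei 4.66% and 5.35% of 2018. Among neurons they were 3.27% and 3.39% of 5935 genes in dentate granule, 3.51% and 3.42% of 6810 in CA1, 2.93% and 4.02% of 6376 in CA2 or CA3, and 4.13% and 2.94% of 5817 in inhibitory neurons. Subicular or cortical excitatory neurons gave 6.12% and 2.49% of 964, and the unnamed clusters 3.26% and 2.98% of 9322. Astrocyte-like nuclei thus had the largest share of genes that differed from WT, on the CPM scale. After identity scaling the higher and lower counts were 65 and 2703 in microglia, 29 and 1219 in astrocytes, 9 and 2258 in oligodendrocytes, 6 and 360 in precursors and 53 and 193 in endothelial cells.

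Some genes differed in nearly every class. Chosen after their values were seen, 21 genes were higher and 14 lower in at least 8 of the 11 classes on the CPM scale. Gm15594, a predicted gene (chr6:18424684-18427885, plus strand), was at 94.4, 91.8, 57.0 and 474 CPM over all nuclei, higher in 11 of 11 classes and high in P301S/EKO alone among the 4 libraries. Sav1, a Hippo pathway scaffold (chr12:69965012-69987002, minus strand), was at 70.1, 4.29, 20.6 and 2.59 CPM, and the predicted gene Gm38039 (chr1:159928390-159931726, minus strand) at 147, 5.31, 59.8 and 4.29 CPM. Ptprb, a receptor phosphatase, was at 77.2, 14.6, 52.4 and 28.8 CPM. These 3 genes were lowest in both libraries without Apoe. Mid1, an X-linked ubiquitin ligase, was at 95.7, 79.0, 130 and 32.5 CPM, 2.95-fold below WT in P301S/EKO (2.59 to 3.36). The metalloproteinase inhibitor gene Timp4 was at 101, 194, 85.5 and 172 CPM, raised in both libraries without Apoe.

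**Figure D5:**
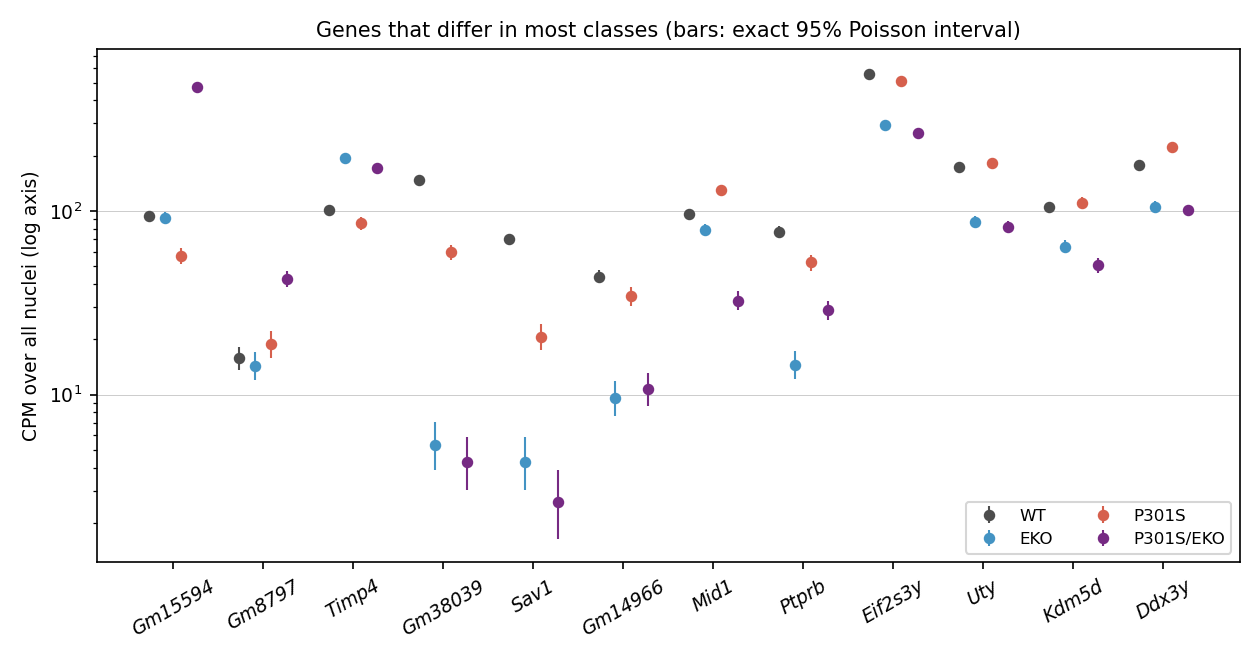
Level over all nuclei (CPM, log axis) of 12 genes that differed between P301S/EKO and WT in most classes, by library, with exact 95% Poisson intervals. Gm15594 stands at 474 CPM in P301S/EKO against 57.0 to 94.4 CPM in the other libraries, and Sav1 and Gm38039 are low in EKO and P301S/EKO.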

How the data were processed

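Single-nucleus RNA was measured in 4 pooled libraries, per the labels. Each deposited matrix gives raw UMI counts of 27998 genes by barcode. The submitters' processing notes name Cell Ranger, Seurat and mm10, without versions. Kept barcodes had 200 or more genes, and mitochondrial UMIs of no more than 5%. The doublet caller of scanpy 1.11.5 made at most 1 call per library, so the barcodes with its highest scores were removed at 0.8% per 1000 barcodes. All 4 libraries were clustered together (2000 variable genes, 30 components, 15 neighbours, resolution 1) into 18 clusters. Clusters were named from fixed markers, with 2 additions made after the clusters were seen: at least 3 measured markers raised, and a mean marker rise of at least 2-fold. Others were left unnamed.

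UMIs were summed per class and library and given as CPM. Ratios carry exact conditional binomial 95% intervals, levels Poisson intervals and shares Clopper-Pearson intervals. With 1 library per genotype there was no test and no p-value. Genes needed 50 UMIs over WT and P301S/EKO, list members 20. A level of 0 was set to a floor of 3 counts for bounds. Log2 ratios carry 0.5 UMI added to each library, and printed fold ratios carry none. The genes named were Apoe, Prnp, Mapt and sex-linked genes, the 3 highest and 3 lowest genes per class beyond 1.5-fold, and up to 4 moved and 4 close members per list; B2m and Trem2 in microglia, Gfap in astrocytes, Isg15 in endothelial cells and the genes that differed in most classes were chosen after their values were seen. Members and lists were chosen with earlier results of these data known. Scripts were tested on simulated counts. Gene positions are from GENCODE (GRCm38), and promoters are from RefSeq (GRCm38.p6).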

Additional observations from a re-analysis of the deposited data

How the results depend on the processing

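No paired analysis was possible because each genotype is 1 library. The cause of the changes below was not tested unless the setting itself makes them. Ratios of shares (P301S/EKO over WT) at 500 genes per nucleus were 0.526 for astrocytes, 0.775 for oligodendrocytes and 0.875 for precursors, with 29 precursor genes higher and 24 lower. At 1100 UMIs the share ratios were 0.461 for astrocytes, 0.802 for precursors, 0.421 for endothelial cells, 1.22 for dentate granule, 0.923 for CA1 and 1.15 for CA2 or CA3 neurons, with 21 precursor genes higher and 24 lower, and the microglial class I median was 1.15. Keeping doublets gave 176 genes higher and 120 lower in subicular or cortical excitatory neurons, and resolution 2 an endothelial share ratio of 0.427.

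Leaving out nuclei with much neuronal RNA left 43 WT microglia. Share ratios were then 3.48 for microglia, 1.36 for oligodendrocytes and 2.65 for precursors. Genes higher and lower were 101 and 58 in microglia, 206 and 129 in astrocytes, 84 and 77 in oligodendrocytes and 27 and 14 in precursors. In endothelial cells 55 were higher. The microglial class II median was 3.23 over 2 genes, of which 1 was called higher and 1 was unresolved. Both had few UMIs in the 43 WT nuclei and passed the UMI minimum mainly through P301S/EKO. A large ratio was thus built in, and this median cannot show how far class II genes moved. Subtracting neuronal RNA gave 198 genes higher in microglia, 183 higher and 142 lower in astrocytes, and 34 higher and 28 lower in precursors. It moved the homeostatic medians to 0.085 in microglia and 0.387 in astrocytes. With equal weight per nucleus 531 microglial and 282 oligodendrocyte genes were higher and 72 precursor genes lower.

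Identity scaling, added after the data were seen, gave 65 higher and 2703 lower genes in microglia, 29 and 1219 in astrocytes, 9 and 2258 in oligodendrocytes, 6 and 360 in precursors, and 53 and 193 in endothelial cells. Medians became 0.728 for disease-associated microglial, 0.287 for lysosomal and 1.04 for disease-associated oligodendrocyte genes. By construction the identity lists went to 0.00082 in microglia, 0.0012 in astrocytes and 0.0039 for myelin. Mapt in oligodendrocytes turned to a log2 ratio of -0.0515.

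With no minimum above 1 UMI more genes were tested, and higher and lower counts were 605 and 504 in microglia, 754 and 502 in astrocytes, 349 and 375 in oligodendrocytes, 242 and 198 in precursors, and 355 and 193 in endothelial cells. In neurons they were 324 and 392 for dentate granule, 383 and 369 for CA1, 3.0e+02 and 405 for CA2 or CA3, 388 and 327 for inhibitory, 223 and 102 for subicular or cortical, and 461 and 419 for unnamed clusters. Median-of-ratios scaling and clustering WT and P301S/EKO alone moved no share ratio, count or list median of the main comparisons beyond its limit. Pooling leaves animal variation unmeasured, and some classes rest on few nuclei (69 WT precursors and 98 P301S/EKO endothelial nuclei).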

Other observations

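Genes near Apoe differed between P301S/EKO and WT more often than genes elsewhere, a difference that was not tested. Within 5 Mb of Apoe on chromosome 7, 15 of 81 genes were called higher or lower over all nuclei (18.5%), and within 10 Mb 30 of 187 (16.0%). Beyond 10 Mb on chromosome 7 the count was 69 of 795 (8.68%), and on all other chromosomes 791 of 11771 (6.72%).

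Oligodendrocyte transcripts were higher in dentate granule neurons of P301S/EKO than of WT. Summed oligodendrocyte markers in dentate granule neurons were 876, 432, 1084 and 1364 CPM (WT, EKO, P301S, P301S/EKO). With nuclei thinned to 1000 UMIs, 45.9% of P301S/EKO and 26.9% of WT granule neurons had an Mbp UMI (48.6% and 37.1% unthinned, 358 and 34 nuclei left out). Ttr, a choroid plexus transcript, was at 486, 9.72, 1790 and 593 CPM over all nuclei, in that order. The pituitary hormone transcript Gh was at 398 CPM in EKO, at 0.68 in P301S/EKO and without a UMI in WT.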
